A study of Mus musculus with 267 samples.

Results

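RNA polymerase II (Pol II) was measured by chromatin immunoprecipitation and sequencing (ChIP-seq) in C57BL/6J (C57) bone marrow–derived macrophages (BMDMs) under basal conditions and after 6 hours of interleukin-4 (IL-4). The libraries were chosen by their labels alone, as all Pol II libraries of the C57 time course that were basal (4 libraries) or treated for 6 hours (2 libraries). A single Pol II library at 1 hour is given as a description, so that 7 of the 267 samples in the series are described, and 3 libraries at 24 hours and 4 libraries of histone H3 lysine 27 acetylation (H3K27ac, 2 basal and 2 at 6 hours) are used for comparison. Marrow came from female mice and was cultured for 7 days with macrophage colony-stimulating factor, and treated cells then received IL-4 at 20 ng/mL. All groups were of this one strain, and the labels name no genetic change in it. Libraries of a group are replicates in the labels and biological replicates in the study's methods, but which mice they came from is not stated, so p-values measure the spread between these libraries.

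Pol II transcribes protein-coding genes. It gathers at gene starts, where it often pauses, passes along the gene and runs on past the gene end, and it is also found at active enhancers. IL-4 binds its receptor on macrophages, Janus kinases phosphorylate the transcription factor STAT6, and STAT6 enters the nucleus and binds DNA. Genes of alternative macrophage activation, such as Arg1, Chil3 and Retnla, are the known targets of this pathway, and SOCS1 and CISH are inhibitors of cytokine signaling that STAT factors induce.

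Pol II was counted in 77955 open chromatin regions, each 1000 bp wide around the center of a peak found by the assay for transposase-accessible chromatin (ATAC-seq) in mm10. Values are normalized tags, that is, reads scaled to a library of 10000000. The basal, 1-hour and 6-hour libraries held 9875546 to 20512293 mapped tags, of which 26.7% to 40.1% lay in these regions, so that 8 normalized tags stood for 7.90 to 16.4 reads. Marker genes of macrophages all had Pol II at their starts: the 13 genes of this list had a region there, with a median basal mean of 302 normalized tags. Only 13 of 43 marker genes of T and NK, B, neutrophil, dendritic, mast, fibroblast, endothelial and erythroid cells had such a region. Their basal means there ran from 1.2 to 77.3 normalized tags, both in the fibroblast and endothelial list. The median over all start regions was 82.8. In a bulk sample, more Pol II in every cell and more cells with Pol II at a gene cannot be told apart.

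The basal libraries did not form a tight group. Their order was compared at the 65522 regions with at least 2 normalized tags of Pol II in the basal mean. At the 1519 of these where H3K27ac was called higher at 6 hours, basal replicate 1 had the most Pol II of the 4 basal libraries in 66.6%, against 30.4% over all 65522. At the 1874 of these where H3K27ac was called lower, it had the least Pol II in 66.8%, against 23.01% over all. Basal replicate 1 thus stood toward the IL-4–treated libraries at both kinds of region. Correlations of log2 values between basal libraries were highest for replicates 3 and 4 (0.930) and lowest for replicates 1 and 4 (0.866), and the 6-hour pair reached 0.941. The main calls are therefore given with all basal libraries, without basal replicate 1, and without basal replicates 3 and 4.

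After 6 hours of IL-4, Pol II was higher at 334 regions (0.428% of 77955) and lower at 107 regions (0.137%) at a limma adjusted p under 0.05. The 10 largest rises, taken 1 for each nearest gene, included regions at or just past Chil3, Tmem26, Arg1, Cish and Socs1, and the largest falls included the start of Cx3cr1, the fractalkine receptor, and an intron of Nlrp3, the inflammasome sensor. The median log2 fold was 2.93 over the rises and −2.49 over the falls, against −0.02 over all regions. At each of these regions the 6-hour and basal values did not overlap, which held for 7.78% of all regions in the higher and 9.84% in the lower direction. Neighboring windows can overlap and share reads: 71 of the 334 rises overlapped another rise, and 28 of the 107 falls another fall.

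The number of calls depended on which libraries were used. Without basal replicate 1, 1564 regions were called higher and 799 lower, among them all 334 and all 107 of the regions above. Without basal replicates 3 and 4, 64 were called higher (59 of them among the 334) and 0 lower by limma, with 2671 lower at p under 0.05 before adjustment. Without basal replicate 2, 3 or 4 alone, 152, 125 or 98 were called higher and 22, 11 or 8 lower. Leaving out 6-hour replicate 1 or 2 left 2 or 15 higher and 2 or 8 lower. DESeq2, a test on the recovered reads, called 974 higher and 624 lower, so that falls took a larger share of its calls. By a fold rule alone, 2.5-fold between group means with at least 8 normalized tags, 1967 regions (2.52%) were higher and 2001 (2.57%) lower.

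**Figure D1:**
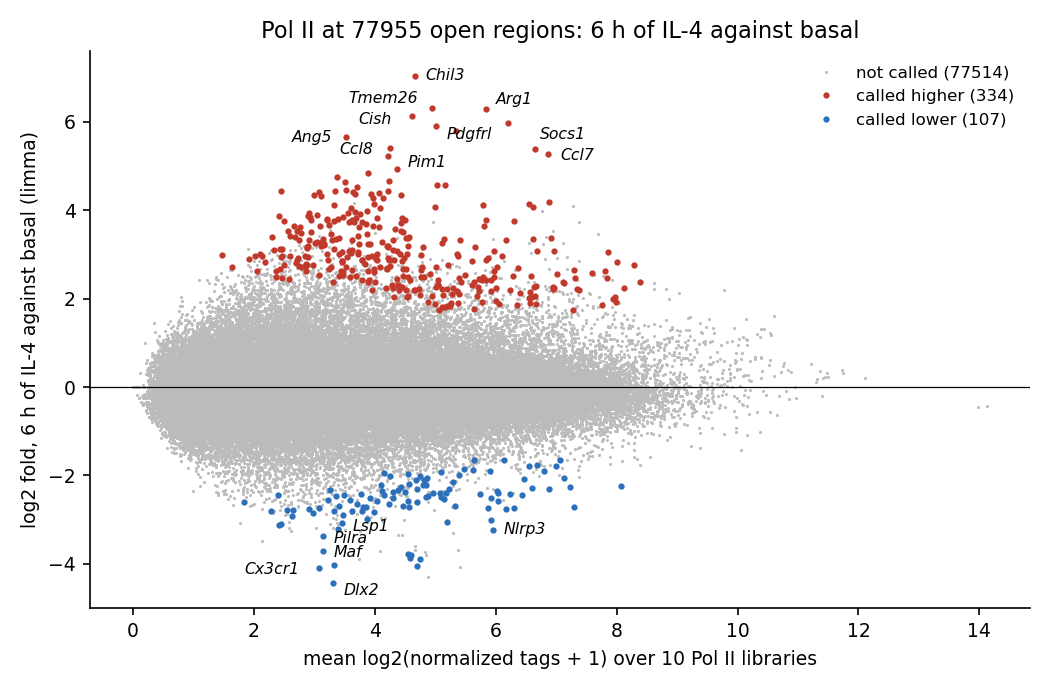
Log2 fold of Pol II at 6 hours against basal (vertical axis) plotted against the mean log2(normalized tags + 1) over the 10 Pol II libraries of the time course (horizontal axis), one point a region. Red points are the 334 regions called higher and blue points the 107 called lower at a limma adjusted p under 0.05, and gray points are not called.

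The largest rise lay downstream of Chil3, the gene of a secreted chitinase-like protein, at chr3:106143825-106144825, 3229 bp past the gene end. Pol II there was 3.12, 1.6, 0 and 4.05 normalized tags in the 4 basal libraries, 51.3 in the 1-hour library, and 263 and 479 in the 6-hour libraries. Both treated times stood far above every basal library, with a log2 fold of 7.04 ± 0.57 (SE, limma adjusted p = 2.48e-05) at 6 hours. This call was kept in all 15 alternative settings. In the 3 libraries at 24 hours the region held 85.4, 74.2 and 43.6 normalized tags, all lower than at 6 hours.

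At Arg1, which encodes the arginine-hydrolyzing enzyme arginase 1, the largest rise was 1474 bp past the gene end, at chr10:24913247-24914247. Basal values were 20.6, 6.42, 6.43 and 2.03 normalized tags, the 1-hour library had 802, and the 6-hour libraries had 1357 and 274. The 6-hour libraries differed from each other by a larger factor than at the other 9 largest rises, and both lay above every basal library (log2 fold 6.30 ± 0.85, limma adjusted p = 0.00227). The same region lies 66 bp past the end of Med23, a Mediator subunit gene that runs toward Arg1, and ChIP-seq reads carry no strand, so Pol II from these genes cannot be told apart there.

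Tmem26, a transmembrane protein gene, had its largest rise in an intron 1935 bp past its start, at chr10:68725181-68726181. The basal libraries held 13.7, 0.8, 0 and 1.01 normalized tags, the 1-hour library 152, and the 6-hour libraries 210 and 221. Basal replicate 1 was the highest basal library, and the groups were still far apart (log2 fold 6.32 ± 0.80, limma adjusted p = 0.00162). Slc7a2, which encodes a transporter of arginine and other cationic amino acids, showed a rise 865 bp past its end at chr8:40922673-40923673, where the nearest gene start is that of Pdgfrl. The basal values of 24.96, 1.6, 0 and 1.01 normalized tags again put replicate 1 highest, and the 6-hour libraries had 168 and 244. Its log2 fold of 5.90 ± 0.92 (limma adjusted p = 0.00771) was not called without basal replicates 3 and 4 (limma adjusted p = 0.0569).

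Both feedback inhibitors had their largest rises past the gene end. At Cish, 483 bp past the end at chr9:107302767-107303767, basal values were 5.62, 0, 0.54 and 2.03 normalized tags, the 1-hour value was 188, and the 6-hour values were 176 and 154 (log2 fold 6.13 ± 0.69, limma adjusted p = 0.00109). At Socs1, 1004 bp past the end at chr16:10780736-10781736, the basal libraries held 16.9, 13.6, 10.7 and 3.04 normalized tags, the 1-hour library 749, and the 6-hour libraries 387 and 494 (log2 fold 5.38 ± 0.66, limma adjusted p = 0.00131). The 1-hour library was above both 6-hour libraries at Cish and at Socs1, whereas it was below both at Chil3 and Tmem26. With 1 library at 1 hour, this order is not tested.

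The chemokine genes Ccl7 and Ccl8, which attract monocytes, and the kinase gene Pim1 were also among the 10 largest rises. Pol II rose from a basal mean of 18.2 ± 8.48 (SD, n = 4) to 674 ± 178 (SD, n = 2) normalized tags 655 bp past the end of Ccl7, from 3.12 ± 4.00 to 120 ± 27.7 in an intron of Ccl8, and from 2.94 ± 3.31 to 89.1 ± 3.30 at an intergenic region 46816 bp upstream of Pim1. The log2 folds were 5.27 ± 0.71 for Ccl7, 5.41 ± 1.09 for Ccl8 and 4.94 ± 0.70 for Pim1. Ccl8 was no longer called without basal replicates 3 and 4 (limma adjusted p = 0.24).

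Ang5 completed the named rises. It belongs to the angiogenin family of secreted ribonucleases, and its region at chr14:43966889-43967889 lies 4317 bp past the gene end. The basal libraries held 1 read in all, in replicate 3, against 213 reads at 6 hours (0, 0, 0.54 and 0 against 62.4 and 48.3 normalized tags), a ratio of 313 with a 95% counting interval from 55.6 to 12430. The limma log2 fold was 5.65 ± 0.47 (adjusted p = 2.48e-05), and the call was kept in all 15 alternatives. Angiogenin genes are close paralogs, so reads may be split between copies.

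**Figure D2:**
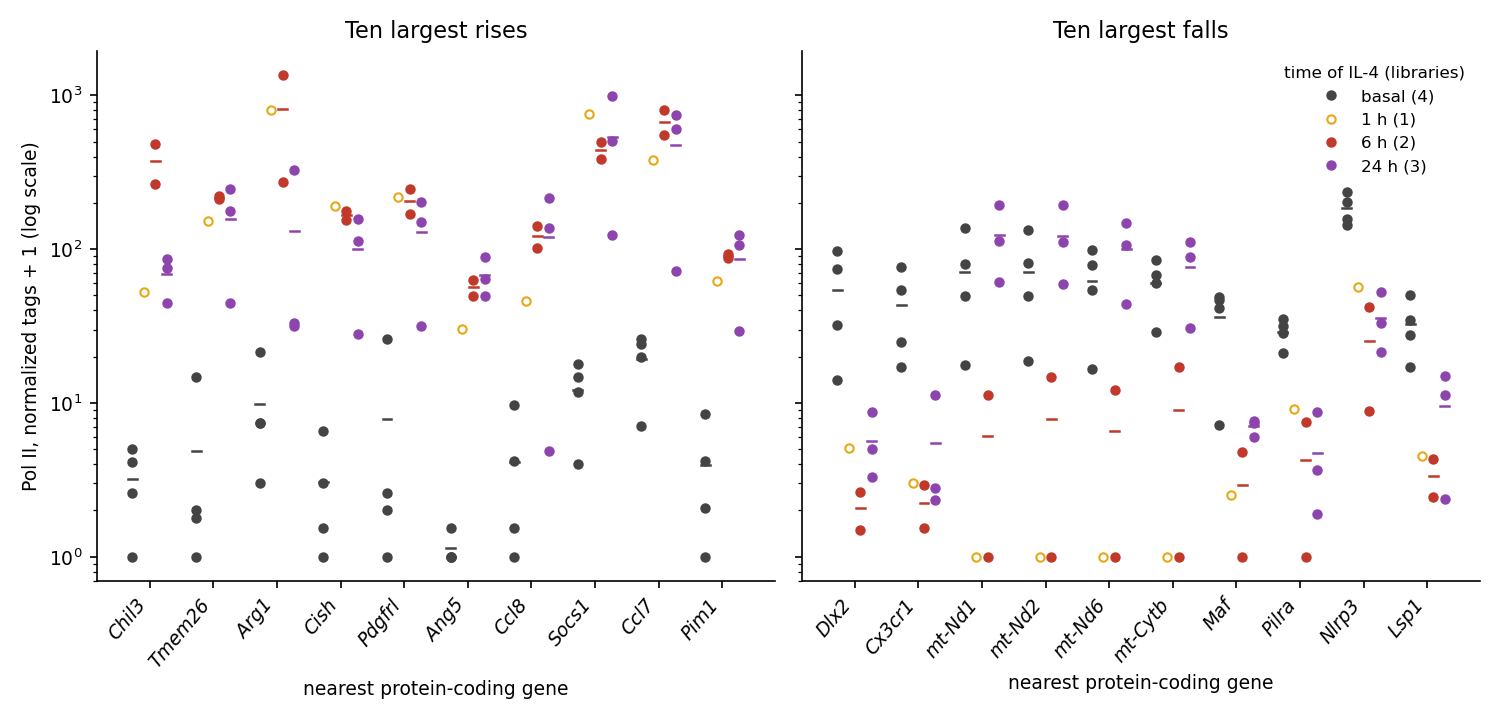
Pol II as normalized tags + 1 on a log scale in each library at the 10 largest rises and the 10 largest falls, named by the nearest protein-coding gene. Points are libraries (4 basal, 1 at 1 hour, 2 at 6 hours, 3 at 24 hours); the basal and 6-hour points do not overlap at any of the 20 regions, for example 0 to 4.05 against 263 and 479 normalized tags at Chil3.

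Rises often came in groups along a gene. The 334 rises had 170 nearest genes, of which 77 had more than 1. Itgb3, which encodes integrin beta 3, had 9 of its 15 nearest regions called higher, spread over the gene start and introns, and Slc7a2 had 6 of 7. Tmem26 had 7 of 14, Ksr2 7 of 13, Smap2 7 of 10 and Fam129b 7 of 44, and Arg1 had 6 of 13 and Pip5k1c 6 of 15. The 107 falls had 73 nearest genes. The largest group was 7 of the 60 regions nearest to Zfp36l2, an RNA-binding protein gene. These 7 were intergenic, 38901 to 71537 bp downstream of its start. Regions of a gene are not independent of each other.

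The positions of the rises were described with the gene annotation. It placed 6.89% of rises at promoters, 41.6% in introns and 44.6% in intergenic sequence, against 16.1%, 43.5% and 32.8% of all regions. Of the rises, 10.2% lay within 5000 bp past the end of a protein-coding gene, against 5.75% of all regions and 4.67% of the falls. Falls were at promoters in 13.1% and in introns in 40.2%. These shares are descriptions, with no test.

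The sequences under the rises can be shown beside their STAT6 binding. STAT6 recognizes TTC and GAA separated by 4 bases, a palindromic pattern that reads the same on both strands. The windows below (mm10, plus strand) hold 101 bases around the match, and capitals mark the matches. Each is from a rise that overlapped a STAT6 peak at 6 hours and held TTCNNNNGAA within the central 201 bases. There were 94 such rises, of which 92 were in the pool for display. The windows are the largest of these 92, one for each nearest gene, so a larger rise outside the pool may be missing. The windows are shown because STAT6 is the factor IL-4 activates. The gene names give only the nearest start, from 2869 bp (Msx3) to 177621 bp (Arglu1) away.
Ang5 (chr14:43967314-43967414): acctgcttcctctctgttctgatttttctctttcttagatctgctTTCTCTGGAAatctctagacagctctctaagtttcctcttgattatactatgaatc
Msx3 (chr7:140051946-140052046): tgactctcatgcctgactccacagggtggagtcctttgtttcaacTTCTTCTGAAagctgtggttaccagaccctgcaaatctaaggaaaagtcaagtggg
Ang2 (chr14:51185892-51185992): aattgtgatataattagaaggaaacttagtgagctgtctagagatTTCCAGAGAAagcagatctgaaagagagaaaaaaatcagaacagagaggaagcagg
Il31ra (chr13:112551891-112551991): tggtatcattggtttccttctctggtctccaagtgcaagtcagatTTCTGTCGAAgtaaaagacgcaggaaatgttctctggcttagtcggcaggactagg
Arglu1 (chr8:8868097-8868197): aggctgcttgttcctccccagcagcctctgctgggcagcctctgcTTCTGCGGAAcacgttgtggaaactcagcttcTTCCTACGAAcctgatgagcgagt
Stt3b (chr9:115387435-115387535): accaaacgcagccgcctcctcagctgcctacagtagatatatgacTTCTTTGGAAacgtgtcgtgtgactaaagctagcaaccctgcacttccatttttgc
Exo5 (chr4:120914669-120914769): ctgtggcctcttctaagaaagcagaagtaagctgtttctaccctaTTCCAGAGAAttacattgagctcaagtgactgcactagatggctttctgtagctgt
Dut (chr2:125256311-125256411): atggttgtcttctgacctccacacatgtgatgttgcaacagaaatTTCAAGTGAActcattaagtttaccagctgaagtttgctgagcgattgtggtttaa

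These 8 regions had log2 folds from 4.35 (Dut) to 5.65 (Ang5), each with a limma adjusted p under 0.05. The Ang5 and Ang2 windows are paralogous: 72 of 100 aligned bases were identical when one was read on the opposite strand, and both held the same 10-base match, TTCTCTGGAA, which reads TTCCAGAGAA on the other strand. The Exo5 window held the latter as well. Matches lay from 5 to 96 bp from the region center.

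Over all rises, 101 of 334 (30.2%) held TTCNNNNGAA in the central 201 bases, against 6.06% of all 77943 regions read and 2 of 102 falls (1.96%, the mitochondrial regions not read). Over the whole region the shares were 45.8%, 23.9% and 20.6%. Among regions with a STAT6 peak at 6 hours, 43.3% of the 217 rises and 10.6% of all such regions held a central match, and of the 117 rises without such a peak 5.98% did. The 3-base spacing that other STAT factors bind, TTCNNNGAA, was at 9.58% of rises and 5.67% of all regions in the central window. Central matches to the C/EBP pattern TTGCNNAA were at 14.7% of rises and 12.01% of all regions, to the PU.1 pattern GAGGAAGT at 5.99% and 8.40%, and to the EGR pattern TGGGCGG at 1.80% and 4.81%. Both strands were searched, and a match is a description of letters, not a binding site.

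Peaks of STAT6 and of other macrophage factors were counted over the same regions. A STAT6 peak at 6 hours overlapped 65.0% of rises, 38.3% of falls and 30.4% of all regions. At 1 hour the shares were 62.3%, 40.2% and 29.3%, and under basal conditions 22.8%, 82.2% and 36.4%, so that basal STAT6 peaks covered a larger share of the falls than of the rises. At 24 hours the shares of rises and falls were close, 73.7% and 74.8%, against 44.4% of all regions. PU.1, the lineage factor of macrophages, had a basal peak at 44.6% of rises and 81.3% of falls (62.3% of all regions), and C/EBP beta at 16.8% and 56.1% (20.7%). EGR2, a factor that IL-4 induces, had a 6-hour peak at 24.6% of rises, 16.8% of falls and 17.1% of all regions. An ATAC-seq peak without treatment overlapped 53.0% of rises and 88.8% of falls (72.1% of all), and one at 1 hour 85.9% of rises and 74.8% of falls (73.4%).

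**Figure D3:**
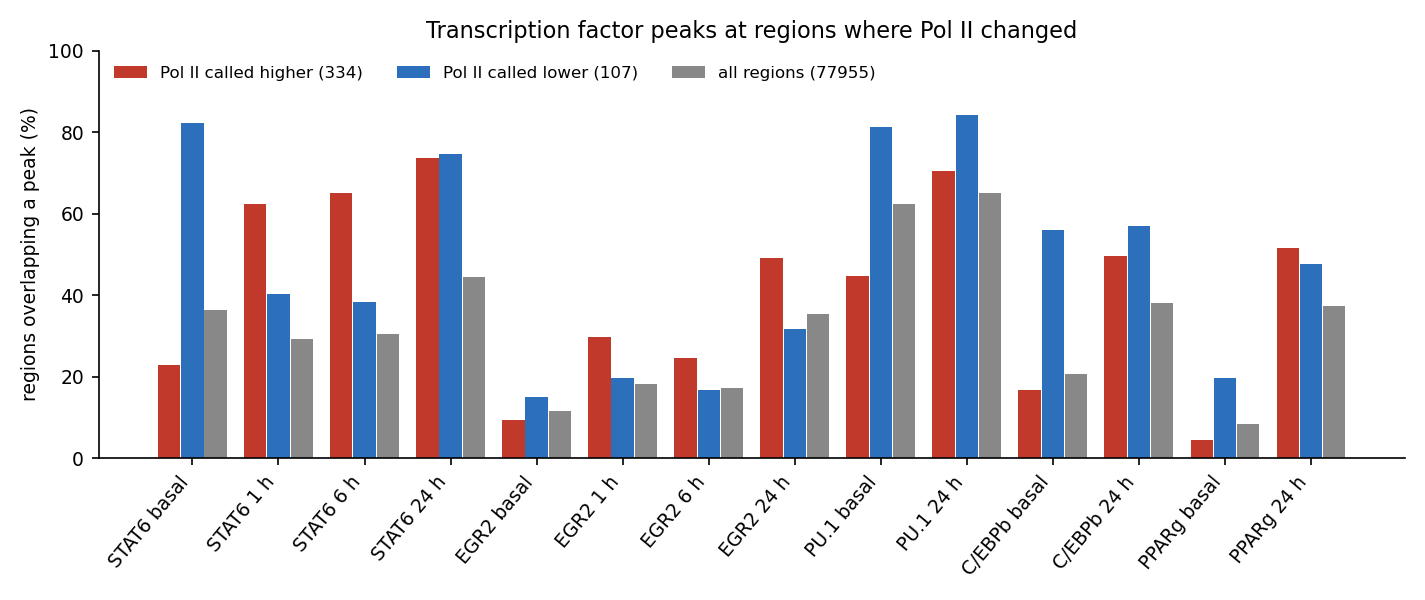
Percent of regions that overlapped a peak of STAT6, EGR2, PU.1, C/EBP beta or PPAR gamma at each time (bars), for regions called higher (334), called lower (107) and all 77955 regions. At 6 hours STAT6 peaks covered 65.0% of the regions called higher, 38.3% of those called lower and 30.4% of all; under basal conditions they covered 22.8%, 82.2% and 36.4%.

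H3K27ac, which marks enhancers and promoters in use, was measured at the same regions in other libraries. It was called higher at 6 hours in 205 of the 334 Pol II rises (61.4%), against 2.67% of all regions, and lower in 71 of the 107 falls (66.4%), against 2.46%. No fall had a call for higher H3K27ac. Its median log2 fold was 2.58 at the rises, −2.41 at the falls and −0.14 over all regions. Across all regions the log2 folds of the 2 marks correlated with Pearson r = 0.629, over regions that are not independent of each other. The largest Pol II rise, at Chil3, had hardly any H3K27ac at either time. It held 1.36 and 0 normalized tags in the basal and 1.54 and 3.04 in the 6-hour libraries (log2 fold 1.06, not called). The region at Ang5 went from 2.04 and 0 to 206 and 262 (log2 fold 7.07).

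At 1 rise H3K27ac was called in the opposite direction, and at 4 further rises and 5 falls, all 5 of them mitochondrial, its log2 fold had the opposite sign without a call. The called region, intergenic at chr4:19871152-19872152 and 5189 bp past the end of Atp6v0d2, the gene of a proton pump subunit, was picked out after its values were seen. Pol II was 80.5, 44.9, 88.4 and 51.6 normalized tags in the basal and 255 and 438 in the 6-hour libraries, and H3K27ac was 94.98 and 252 in the basal and 26.95 and 20.7 in the 6-hour libraries. The log2 fold was 2.37 for Pol II (limma adjusted p = 0.0153) and −2.66 for H3K27ac (limma adjusted p = 0.0151).

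When Pol II and H3K27ac were both required to pass the fold rule in the same direction, 1276 regions (1.64%) were higher and 1459 (1.87%) lower. Of the higher regions 1056 (82.8%) and of the lower 1141 (78.2%) lay over 1000 bp from any gene start, against 54565 of all 77955 regions (69.996%). Of these regions, 250 of the higher and 95 of the lower were also called by limma on Pol II. A STAT6 peak at 6 hours overlapped 64.7% of the higher regions and 44.3% of the lower, and a basal STAT6 peak 19.6% and 78.3%.

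**Figure D4:**
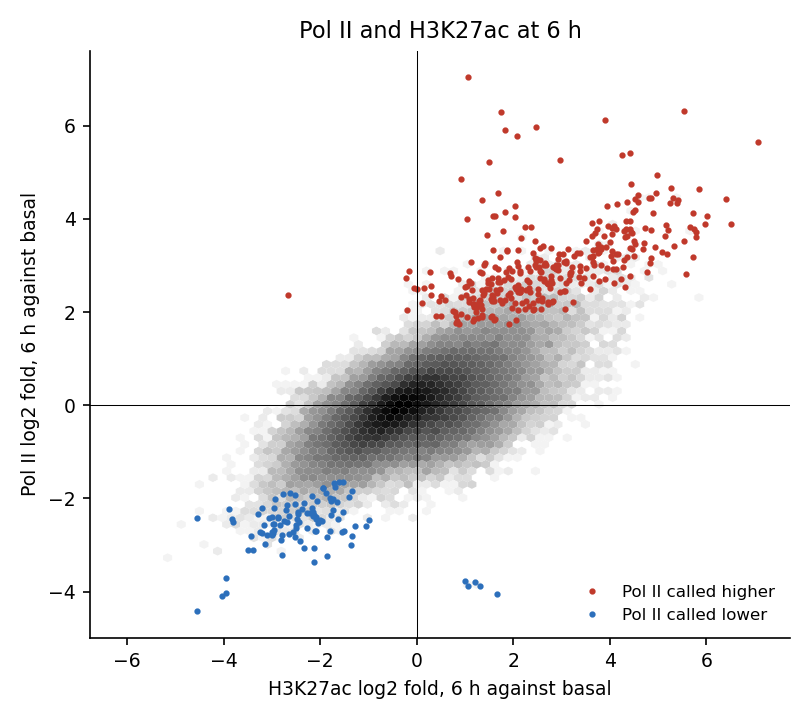
Pol II log2 fold at 6 hours against basal (vertical axis) plotted against the H3K27ac log2 fold (horizontal axis), one point a region. The 334 regions called higher for Pol II (red) have a median H3K27ac log2 fold of 2.58, and the 107 called lower (blue) have −2.41.

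The largest fall was nearest to Dlx2, a homeobox factor gene whose start is 115418 bp away, at chr2:71661672-71662672. The deposited annotation classes this region as an intron, but its center lies in no gene of the gene positions used here. Basal values were 13.1, 31.3, 95.9 and 72.9 normalized tags, the 1-hour value was 4.06, and the 6-hour values were 1.64 and 0.49 (log2 fold −4.42 ± 0.68, limma adjusted p = 0.00708). H3K27ac fell there as well, by 4.54 on the log2 scale (limma adjusted p = 0.00084). The start of Cx3cr1 followed, at chr9:120067784-120068784, with 16.2, 24.1, 53.1 and 75.95 normalized tags in the basal libraries against 2.03 at 1 hour and 0.55 and 1.95 at 6 hours (log2 fold −4.10 ± 0.70, limma adjusted p = 0.0136). The treated libraries were all below the lowest basal one, replicate 1, and the pair with the highest values was replicates 3 and 4.

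Nlrp3 had the highest basal level among the 10 largest falls. Its intronic region at chr11:59543682-59544682 had 157, 202, 234 and 142 normalized tags in the basal libraries, 55.4 at 1 hour, and 41.1 and 7.8 at 6 hours (log2 fold −3.23 ± 0.53, limma adjusted p = 0.0103). The other nuclear falls were an intergenic region 109769 bp from the start of Maf, a macrophage transcription factor (log2 fold −3.71), an intron of Pilra, an inhibitory receptor gene (−3.38), and a region 2650 bp upstream of Lsp1, a leukocyte actin-binding protein gene (−3.22). None of the 10 largest falls was called without basal replicates 3 and 4.

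The remaining 4 of these 10 falls lay on the mitochondrial chromosome, at mt-Nd1, mt-Nd2 and mt-Nd6 and 744 bp past the end of mt-Cytb. These genes encode respiratory chain proteins and are transcribed by a separate mitochondrial polymerase. The 12 mitochondrial regions together held 175 to 1248 normalized tags in the basal libraries, 0 in the 1-hour library, 0 in 6-hour replicate 1, 149 in 6-hour replicate 2 and 490 to 1911 at 24 hours. Only 1 of the 2 libraries at 6 hours thus had any mitochondrial reads, and its total lay below the lowest basal library. Whether reads of this chromosome were removed in some libraries was not tested. In all, 5 of the 107 falls were mitochondrial.

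At gene starts the calls were fewer. Of 12876 protein-coding genes with a region within 1000 bp of a start, 20 (0.155%) had more Pol II there at 6 hours and 13 (0.101%) less. Genes of alternative activation took 5 of the 20: Slc7a2, Pdcd1lg2, Tmem26, Mgl2 and Arg1. The other rises included Egr2, Ccl7, the homeobox gene Msx3, the tight junction gene Cldn11, the integrin gene Itgb3 and the proton pump gene Atp6v0d2. The 13 falls included Cx3cr1, Cd14, the T cell costimulator gene Icosl, the lipoprotein gene Apoc1, the matrix protein gene Thbs1 and Lsp1, beside 3 mitochondrial genes, 2 of which shared 1 region.

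Pdcd1lg2, which encodes the PD-1 ligand PD-L2, had 1.87, 2.41, 0.54 and 2.03 normalized tags at its start in the basal libraries and 35.6 and 34.1 at 6 hours. The 6-hour pair agreed closely, and all basal values were near 0 (log2 fold 3.79 ± 0.58, limma adjusted p = 0.00708). It was the single start region of the gene lists still called without basal replicates 3 and 4 (limma adjusted p = 0.0422). Mgl2, a lectin of alternatively activated macrophages, rose from 7.49, 3.21, 5.36 and 12.2 to 57.5 and 26.3 normalized tags (log2 fold 2.43 ± 0.52, limma adjusted p = 0.0408).

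Slc7a2 and Tmem26 had starts at which the basal libraries differed widely. Pol II at the Slc7a2 start was 42.4, 15.2, 2.14 and 5.06 normalized tags in the basal and 159 and 220 in the 6-hour libraries (log2 fold 4.13 ± 0.75, limma adjusted p = 0.0191). Tmem26 had 51.2, 22.5, 3.22 and 5.06 against 138 and 240 (log2 fold 3.78 ± 0.77, limma adjusted p = 0.0331). Basal replicates 1 and 2 were the higher pair at both, and neither was called without replicates 3 and 4 (limma adjusted p = 0.0942 and 0.193).

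Arg1 and Egr2 had smaller rises at the start. The Arg1 start region, 805 bp upstream, held 41.2, 22.5, 19.3 and 9.11 normalized tags in the basal and 143 and 83.8 in the 6-hour libraries (log2 fold 2.38 ± 0.51, limma adjusted p = 0.0448). Egr2, the gene of a zinc finger factor, had 170, 105, 68.1 and 124 against 398 and 495 (log2 fold 1.99 ± 0.40, limma adjusted p = 0.0327). Ccl7 rose from 25.6, 40.1, 18.2 and 14.2 to 335 and 468 (log2 fold 4.06 ± 0.67, limma adjusted p = 0.0115). Cd14, the lipopolysaccharide coreceptor, fell from 216, 238, 305 and 318 to 71.2 and 82.9 (log2 fold −1.78 ± 0.36, limma adjusted p = 0.0326). The 4 were not called without basal replicates 3 and 4 (limma adjusted p from 0.0985 to 0.301).

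The starts of Socs1 and Cish did not pass the test, although regions past their ends did. Socs1 had 187, 245, 157 and 82.0 normalized tags at its start in the basal and 376 and 537 in the 6-hour libraries, a log2 fold of 1.52 ± 0.53 (limma adjusted p = 0.258). Cish had 53.0, 32.9, 4.82 and 12.2 against 133 and 168 (log2 fold 2.96 ± 0.72, limma adjusted p = 0.0803). Without basal replicate 1, the Cish start was called (limma adjusted p = 0.00691) and the Socs1 start was not (limma adjusted p = 0.157). The groups did not overlap at either start. Retnla, a classic IL-4 target, had no region within 1000 bp of its start and is not given here.

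Alternative activation genes had more called starts than any other list. The lists were chosen with earlier results of these data known, so these counts are a description. In this list, 17 of 24 had a start region, 5 were higher and 0 lower, against 0.155% higher and 0.101% lower of all start regions. The median log2 fold was 1.62 with 16 of 17 above 0, against a median of −0.01 over all start regions. Without basal replicates 3 and 4, 1 of the 17 starts was called higher, and without basal replicate 1, 6 were. At regions over 1000 bp from any start and within 50000 bp of a gene of this list, 22 of 140 were higher and 0 lower, against 0.538% higher and 0.135% lower of 40690 such regions around all genes. They included 5 regions near Slc7a2, 5 near Tmem26, 4 near Arg1 and 3 near Mrc1, the mannose receptor gene. Mrc1 itself had 112, 98.7, 206 and 116 normalized tags at its start against 429 and 364 at 6 hours (limma adjusted p = 0.13).

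Signaling genes of the IL-4 pathway showed no called start, but only 0.155% of all start regions were called higher and 0.101% lower. A list this short without a call is therefore not a result about its genes. Of the 40690 distal regions around all genes, 0.538% were higher and 0.135% lower. The receptor, Janus kinase and STAT6 list had 0 of 13 called in either direction and a median log2 fold of −0.02. Of its 97 distal regions 1 was higher, near Jak2, and 1 lower, near Stat6. The SOCS and PIAS list had 0 of 12 called, a median of −0.01, and 7 of 65 distal regions higher, 4 near Socs1, 2 near Cish and 1 near Socs5. Without basal replicate 1, 1 start of this list was higher, that of Cish. Transcription factors of the response had 1 of 18 higher, Egr2, with a median of 0.70, and 6 of 167 distal regions higher, near Bhlhe40, Nfil3 and Egr2. Arginine and polyamine genes had 2 of 14 higher, Arg1 and Slc7a2, which the alternative activation list holds as well.

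Lists of other programs had few called starts, beside 0.155% higher and 0.101% lower of all start regions. At these shares, a list of this size without a call is not a result about its genes. The median log2 fold over all start regions was −0.01. Immediate early genes had 0 of 15 called and a median log2 fold of −0.33, with 1 of 15 above 0. NF-kB and inflammatory genes had 1 of 20 higher, Ccl7, and a median of −0.18, and interferon-stimulated genes had 0 of 24 called (median −0.07). Toll-like, Fc and chemokine receptors had 2 of 16 lower, Cx3cr1 and Cd14, and a median of −0.72. Macrophage markers had 1 of 13 lower, Cd14 again, and a median of −0.31. No start was called among 16 lipid genes, 7 MHC class II genes, 25 cell cycle genes, 17 Pol II pausing and elongation factors or 23 ribosomal protein genes, with medians from −0.25 (cell cycle) to 0.40 (MHC class II). No start of another cell type's markers was called. Without basal replicate 1, NF-kB and inflammatory genes had 3 starts higher, and the receptor list had 2 higher and 4 lower. In that setting macrophage markers had 2 starts lower, and lipid and cell cycle genes 1 lower each.

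**Figure D5:**
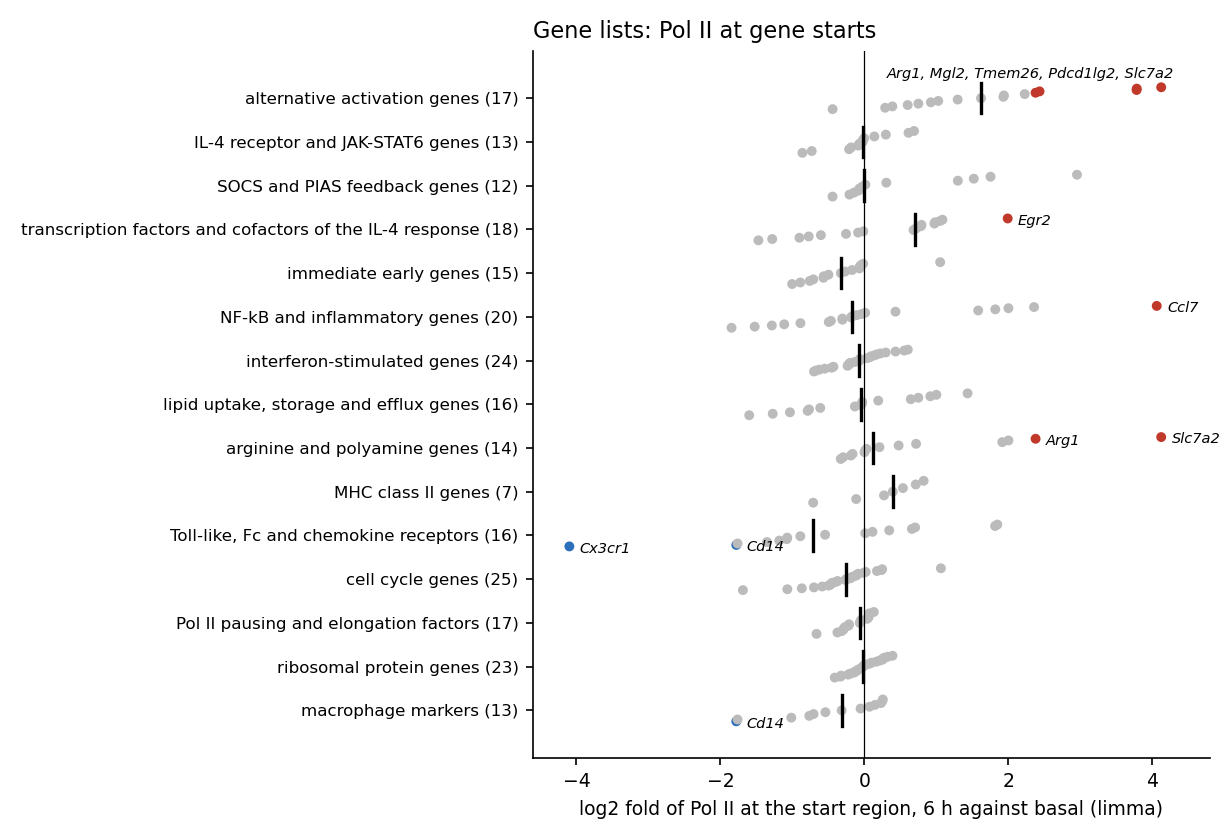
Limma log2 fold of Pol II at the start region, 6 hours against basal, for the genes of each list (points), with the number of genes that have a start region in parentheses. Alternative activation genes have a median of 1.62, and 5 of their 17 starts were called higher; all start regions have a median of −0.01.

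Along gene bodies, taken as the mean of the regions inside a gene and over 1000 bp from any start, 24 of 5273 genes (0.455%) were higher and 7 (0.133%) lower. A gene needed at least 2 such open regions, and the median was 4 in the higher, 3 in the lower and 3 in all genes. These means thus cover a few open regions, not the whole gene. The 5 largest rises were Slc7a2 (log2 fold 4.35 ± 0.78), Tmem26 (4.21 ± 0.73), Socs1 (4.00 ± 0.52), Ankmy1 (3.88 ± 0.68) and Dut (3.62 ± 0.63), with limma adjusted p from 0.00706 to 0.0266. The Socs1 body, past its start, went from 19.035, 22.1, 13.4 and 14.2 normalized tags in the basal libraries to 718 at 1 hour and 321 and 252 at 6 hours. Dut, which encodes the enzyme that clears dUTP, went from 3.44, 3.21, 3.22 and 6.08 to 38.3 and 89.2, while its start had a log2 fold of 0.58 (limma adjusted p = 0.783). The means of Socs1 and Dut rest on 2 regions each, and only 1 of those of Dut was called by itself. Ankmy1 had 1 of 3 regions called. The called regions nearest to the Gpc1 start reached chr1:92862119, inside the Ankmy1 span (92859803 to 92902906). ChIP-seq reads carry no strand, so Pol II from Gpc1 and Ankmy1 cannot be told apart there. Of the 20 higher genes with a start region, 5 also had the start called.

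The 5 largest gene body falls were Clec12a, an inhibitory lectin receptor gene (log2 fold −2.67), Neurl3 (−2.46), Nlrp3 (−2.27), Sarm1 (−2.19) and Stac (−1.83), with limma adjusted p from 0.0125 to 0.0323. Clec12a had 128, 368, 272 and 237 normalized tags in the basal and 38.3 and 33.6 in the 6-hour libraries. Neurl3 had 71.4, 136, 269 and 176 against 25.7 and 25.8. The means of Clec12a, Neurl3 and Sarm1 rest on 2 regions each. Only 1 of those of Sarm1 was called by itself, and its nearest gene start is that of Slc46a1. Of the 7 lower genes, 6 had a start region, and 0 of these starts were called, beside 0.101% of all start regions called lower. Without basal replicates 3 and 4, 4 bodies were called higher (Il31ra, Pdia4, Smap2 and Smg5, chosen here for keeping the call) and 1 lower (Sarm1), and with 6-hour replicate 1 or 2 left out limma called 0, with 184 or 202 higher and 214 or 205 lower at p under 0.05 before adjustment. Leaving out basal replicate 1 gave 175 higher and 109 lower, and leaving out basal replicate 2, 3 or 4 gave 11, 12 or 10 higher and 1, 2 or 1 lower.

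The single 1-hour library lay on the same side of the basal libraries as the 6-hour libraries at most of these regions. It was above the basal mean at all 334 rises and above all 4 basal libraries at 329, against 11716 of all 77955 regions. It was below all 4 basal libraries at 106 of the 107 falls, against 23777 of all regions. The median log2 difference from the basal mean was 2.499 at the rises and −2.19 at the falls. The basal libraries are shared by the 1-hour and 6-hour differences, so these counts are not independent of the calls.

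No region passed the test between 24 and 6 hours. Limma called 0 of 77955 regions (0%) higher and 0 (0%) lower at 24 hours than at 6 hours, 1126 had p under 0.05 before adjustment, and the alternatives edgeR and DESeq2 gave 0 calls and 1 call (lower). At the rises, 54 of 334 had a higher mean at 24 hours, and the median log2 difference was −0.37. At the falls, 102 of 107 were higher, with a median of 0.77. The 6-hour values chose these regions, so that their direction at 24 hours is a description only. The median over the rises was 48.7 and 45.1 normalized tags in 24-hour replicates 1 and 2 and 25.7 in replicate 3.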

How the data were processed

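Per the study's methods, the authors fixed cells with formaldehyde, immunoprecipitated Pol II or H3K27ac, mapped single-end reads to mm10 with Bowtie2 and counted them with HOMER. The deposited table holds a signal, tags per 10000000 in 1000 bp around merged ATAC-seq peaks. The deposited peak lists carry a score and were used by position only, at 1 bp of overlap. Each signal value came out as a whole number of reads within 0.1 read.

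Pol II was compared with limma 3.58.1 (R 4.3.3, trended variance) on log2(normalized tags + 1), with a mean for each time over all 10 Pol II libraries, no filter and Benjamini-Hochberg adjustment over all 77955 regions, so folds of low regions are understated. edgeR 4.0.16 and DESeq2 1.42.0 on the recovered reads were alternatives, with other pseudocounts, scalings, filters and left-out libraries. Scripts were tested on simulated data. Gene positions are from GENCODE vM21. Counting intervals cover counting error only. Replicate libraries differed beyond sampling noise (chi-square per degree of freedom from 6.48 to 17.6), and each was counted as 1 sample.

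Named regions were the 10 largest rises and falls that passed limma and the fold rule without overlap, 1 for each nearest gene, up to 4 called starts a list and Arg1, Egr2, Socs1, Cish, Slc7a2, Cx3cr1 and Retnla whatever they showed, and the 5 largest rises and falls over gene bodies. The comparison, the named genes and the lists were chosen with earlier results of these data known.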

Additional observations from a re-analysis of the deposited data

Results flagged for a closer look

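Among 41 named regions and gene bodies, 5 had 1 basal library far from the other 3 by Dixon's test at the 95% level, where chance flags about 1 in 20. The Cx3cr1 start is counted both as a largest fall and as a named start. Basal replicate 1 was far above the other basal libraries at the Tmem26 intron (13.73 normalized tags), at the region past Slc7a2 that is nearest to Pdgfrl (24.96) and over the Ankmy1 gene body (14.1). Basal replicate 3 was the one with a read at the Ang5 region (0.54), and basal replicate 4 was above the others over the Dut gene body (6.08). In each case the value stayed below both 6-hour libraries.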

How the results depend on the processing

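The alternative without basal replicates 3 and 4 was chosen after the data were seen. For Pol II calls at 6 hours against basal, 334 higher became 215 with the groups compared alone, 573 with edgeR and TMM, 974 with DESeq2, 64 without basal replicates 3 and 4, and 2 to 1564 without 1 library in turn. The 107 lower became 297 with the replicate block, 624 with DESeq2, 0 without basal replicates 3 and 4, and 2 to 799 without 1 library. The replicate block gave 493 higher. Deviations of same-numbered libraries correlated at 0.131 and 0.307 for basal and 6 hours (2 pairs), 0.187, 0.276 and 0.385 for basal and 24 hours, and 0.0886 and 0.285 for 6 and 24 hours. The labels do not say that a number marks a shared mouse or day, so the fit without the block was kept, and whether the numbers pair the libraries is not settled. For the fold rule, 1967 higher became 1097 with a pseudocount of 5, 3411 at 2-fold and 1629 to 3620 without 1 library, and 2001 lower became 971, 3771 and 1633 to 3105. With both marks, 1276 higher became 712 with a pseudocount of 5, 2116 at 2-fold, 834 without basal replicates 3 and 4 and 1063 to 2035 without 1 library, and 1459 lower became 769, 2732, 878 and 1141 to 1818. For 24 against 6 hours, 0 higher became 10 with the block and 0 to 8 without 1 library, and 0 lower became 1 with DESeq2. For gene bodies, 24 higher became 42 with median-ratio scaling, 4 without basal replicates 3 and 4 and 0 to 175 without 1 library, and 7 lower became 11 with a pseudocount of 5, 14 with median-ratio scaling, 1 without basal replicates 3 and 4 and 0 to 109 without 1 library. The cause of these changes was not tested. The 41 named results, in which the Cx3cr1 start is counted under both naming rules, gave 585 alternative values. Of these, 388 stayed on their side of the threshold, 192 lost the call, 5 gained it and 0 changed direction. Depth limits the low regions, where 1 read was 0.488 to 1.01 normalized tags in the basal, 1-hour and 6-hour libraries.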
